A study of Mus musculus with 8 samples.

Results

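Histone genes were read through 70 probes of 47 gene symbols, out of 41174 non-control probes on the arrays. A probe was taken if its symbol in the scanner files began with Hist1h, Hist2h, Hist3h, Hist4h, H1f, H2af or H3f, and each probe was kept apart. Of these probes 15 were for linker histones and 55 for core histones. A probe was called tested if 1 and the same RNA gave it a signal well above background on each array of at least 1 comparison, which held for 62 histone probes (14 linker, 48 core) and for 29464 probes in all. The 8 untested histone probes were the only probes for H2afy2, Hist1h2ac and Hist1h2be, both probes for Hist2h2aa2, and 1 probe each for H2afz, Hist1h1d and Hist4h4. Symbols are given as the files have them. All 47 matched a current mouse gene of RefSeq.

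The core histones H2A, H2B, H3 and H4 form the spool around which nuclear DNA is wound, and the linker histone H1 sits where the DNA enters and leaves that spool. Most of these proteins come from the Hist clusters, groups of small genes transcribed mainly in S phase, whose messages normally end in a stem-loop and not in a poly(A) tail. Variant histones such as H1.0 (H1f0), H1.10 (H1fx), H2A.X (H2afx), H2A.Z (H2afz, H2afv), macroH2A (H2afy) and H3.3 (H3f3a, H3f3b) come from genes outside the clusters, are made throughout the cell cycle and mostly carry a poly(A) tail. The RNA was labelled with a kit that primes from poly(A) tails, so a cluster probe reads the share of the message that carries one.

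All cells were bone marrow-derived mouse Pax5-/- pro/preB cells. These cells have no functional Pax5, a transcription factor needed for commitment to the B-cell fate, and were grown with IL-7 on gamma-irradiated OP9 stromal cells. Clone 4, a single clone, carried the doxycycline-dependent activator rtTA and a human Pax5 transgene (huPax5) under its control, and was given doxycycline at 10, 300 or 1000 ng/ml. Pax5sz2 cells had the rtTA activator but not the huPax5 transgene. Their labels give doxycycline treatment and no dose. The common partner of these 4 RNAs was untreated clone 4 (0 ng/ml). Every comparison had 2 arrays in opposite dye orientation, which makes 8. The doses address what differs with the amount of inducer, and Pax5sz2 what differs where the transgene is missing. Pax5sz2 and clone 4 are different cell lines, so transgene, doxycycline and clone cannot be told apart there. A comparison rests on 1 RNA per group and 2 technical arrays without replicate cultures. Single comparisons therefore have no p-value, and every ± is the SD of 2 arrays (n = 2), which leaves out the spread between cultures. In these bulk samples fewer cells of a kind and less RNA per cell cannot be told apart.

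Values are log2 ratios of the named RNA over clone 4 without doxycycline, after background correction and normalization within each array, unless a level is named. A level is the normalized log2 intensity of 1 RNA. The arrays of the 1000 ng/ml pair were rehybridised slides read with an older scanner protocol, and across all probes their ratios ran against those at 300 ng/ml (r = -0.359 with the named RNA in Cy5, r = -0.46 in Cy3, across probes, which are not independent replicates). The direction of that pair is therefore not settled. The labelled direction is kept, and its values are also given with the sign turned. At 300 ng/ml, 6 of 62 histone probes were more than 1 log2 unit lower on the array with the named RNA in Cy5 than on the other. In the 1000 ng/ml pair 7 were more than 1 unit higher there, against 1 at 10 ng/ml and 0 in Pax5sz2. The number of arrays limits the precision. As a check of cell type, Vpreb1 and Igll1, the surrogate light chain genes of pro-B and pre-B cells, were well above background in neither RNA of the dose comparisons and in both RNAs of the Pax5sz2 comparison, with ratios there of 7.88 ± 0.94 for Vpreb1 and of 5.65 ± 0.44 and 0.98 ± 0.35 for the 2 tested Igll1 probes. Other genes of that list went the other way in Pax5sz2. Over its 25 tested probes 3 were at least 2-fold higher and 7 lower, among them all 3 probes of Dntt, the terminal transferase of early lymphocytes (-4.89 ± 0.32, -3.05 ± 0.62 and -4.09 ± 0.30), Rag1 (-1.91 ± 0.082), Ebf1 (-1.58 ± 0.33) and both probes of Vpreb3 (-1.41 ± 0.019 and -1.28 ± 0.11). The other 12 of 14 pro-B and pre-B genes were detected in both RNAs at 10 and 300 ng/ml. For Vpreb1 and Igll1 the call in untreated clone 4 thus differed between comparisons that share this control label. The reason was not tested.

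With intensity-dependent (loess) normalization, histone probes below clone 4 outnumbered those above it in Pax5sz2 and at the 2 lower doses. The size rule asked for a log2 ratio of at least 1 (2-fold) on both arrays in the same direction. In Pax5sz2, 13 of 62 tested probes (21%), of 11 genes, were at least 2-fold lower and 0 were higher. Over all tested probes 5.13% passed the size there, made up of 3.24% lower and 1.89% higher. At 300 ng/ml, 9 probes of 6 genes were lower and 2 higher (17.7%, against 3.38% of all tested probes, of which 2.28% lower and 1.09% higher). At 10 ng/ml, 2 were lower and 1 higher (4.84%, against 1.69%, of which 1.19% lower and 0.502% higher). In the 1000 ng/ml pair 3 were higher and 0 lower as labelled, or 3 lower and 0 higher with the sign turned (4.84%, against 2.15%, of which as labelled 1.63% higher and 0.519% lower).

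At 10 ng/ml 40 of 62 probes lay below 0 on both arrays (64.5%, against 37% of all tested probes) and 14 above 0 (22.6%, against 38%). At 300 ng/ml 36 lay below 0 (58.1%, against 36.8%) and 10 above (16.1%, against 34.6%). In Pax5sz2 43 lay below 0 (69.4%, against 38.9%) and 8 above (12.9%, against 38.9%). The 1000 ng/ml pair as labelled had 17 below 0 (27.4%, against 30.9%) and 29 above (46.8%, against 33.1%), and the 2 numbers change places with the sign turned.

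These counts depended on the scaling. With arrays only centred on their median, without the intensity-dependent normalization, the 2 arrays of a pair lay further apart, by a median over histone probes of 1.35, 1.21, 2.09 and 1.21 log2 units at 10, 300 and 1000 ng/ml and in Pax5sz2, against 0.23, 0.26, 0.28 and 0.21 as normalized here. The median of the pair means over histone probes moved as well, to -0.05, -0.19, 0.08 and -0.08 in the same order. As normalized here it was -0.22, -0.38, 0.14 and -0.425. Why the counts changed was not tested. Those that follow are with median centring. The size was passed by 2 histone probes at 10 ng/ml (3.23%, against 0.658% of all tested probes), 3 at 300 ng/ml (4.84%, against 2.28%), 0 in the 1000 ng/ml pair (0%, against 0.74%) and 6 in Pax5sz2 (9.68%, against 3.23%). Below 0 on both arrays lay 22 probes at 300 ng/ml (35.5%, against 24.1%) and 20 in Pax5sz2 (32.3%, against 21.6%), with 6 (9.68%, against 20.9%) and 8 (12.9%, against 32.7%) above. At 10 ng/ml the excess below 0 was gone, with 5 probes below (8.06%, against 17.3%) and 5 above (8.06%, against 19.8%). The 1000 ng/ml pair as labelled had 3 below (4.84%, against 8.87%) and 4 above (6.45%, against 9.56%). The 4 comparisons share the control RNA's label, so their lists are not independent.

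**Figure D1:**
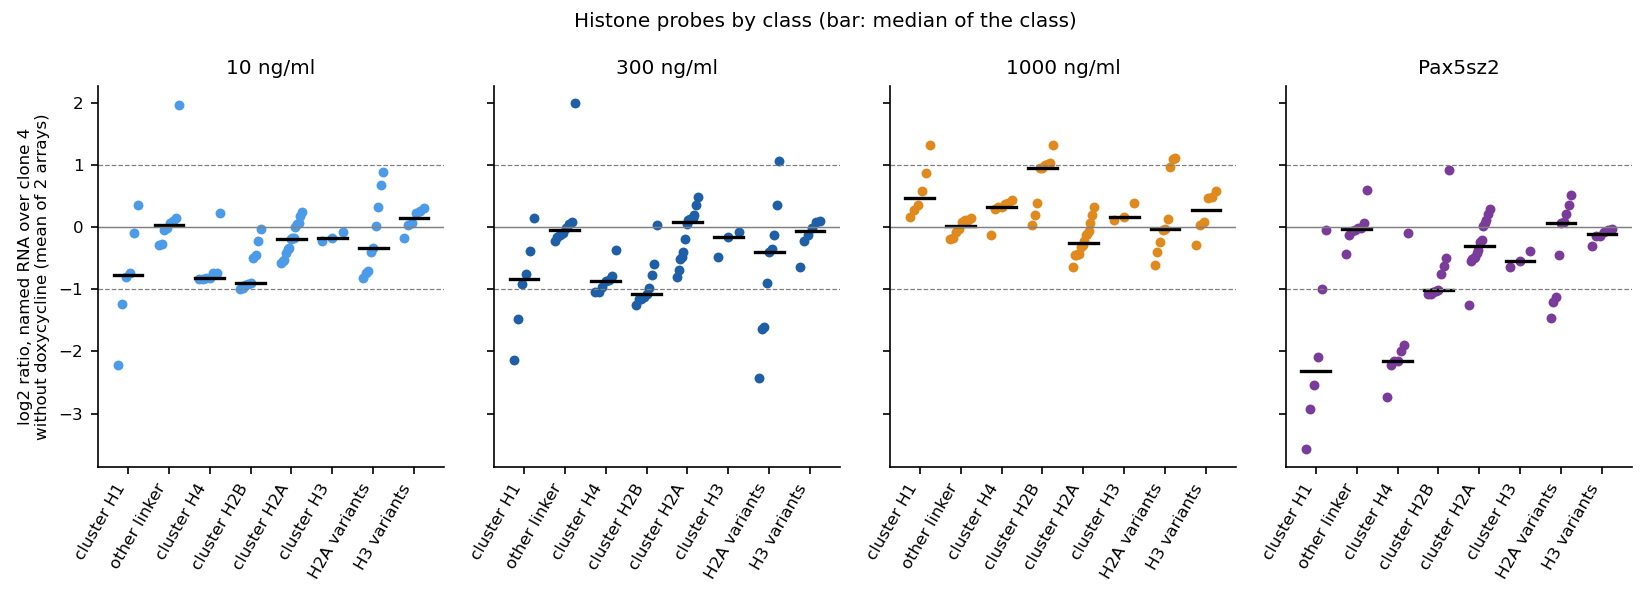
Mean log2 ratio of each tested histone probe (named RNA over clone 4 without doxycycline), by class and comparison, with a bar at the median of the class and dashed lines at 2-fold. In Pax5sz2 the cluster H1 and H4 probes lie lowest, with medians of -2.32 and -2.15, and at 1000 ng/ml as labelled the cluster H2B probes lie highest, with a median of 0.96.

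Among linker histones, the cluster genes Hist1h1a to Hist1h1e, which encode the H1 proteins of dividing somatic cells, were lower in Pax5sz2 than in clone 4. The median of their 6 tested probes was -2.32, and 4 of the 6 were at least 2-fold lower. It was -0.77 at 10 ng/ml and -0.83 at 300 ng/ml, with 2 of 6 lower at each dose, and 0.47 at 1000 ng/ml as labelled, with 1 higher (-0.47 with the sign turned). The direction of these 4 medians was the same with arrays centred on their median (-1.98 in Pax5sz2, -0.54, -0.75 and 0.40 at the rising doses) and with the scanner's processed signals. With median-centred arrays 4 of 6 still passed the size in Pax5sz2, and 1 of 6 at 10 and at 300 ng/ml.

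Hist1h1e (H1.4) had the lowest ratio of all histone probes. Its probe, at chr13:23629303-23629362 in mm8, read -3.69 and -3.47 on the 2 arrays of Pax5sz2, a mean of -3.58 ± 0.15, or 11.9-fold lower, which ranked 6 from the lowest of all tested probes. It read -1.35 and -1.13 at 10 ng/ml, and -1.77 and -1.18 at 300 ng/ml. The arrays of the 1000 ng/ml pair differed in sign (0.63 and -0.29). Its level in clone 4 without doxycycline was between 13.03 and 13.13 in all 4 comparisons (13.20 in the 1000 ng/ml pair with the sign turned), a narrower span than the ratios at 10 ng/ml, 300 ng/ml or in Pax5sz2.

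Hist1h1d (H1.3) was low at both lower doses and in Pax5sz2. Its brightest probe, A_52_P10683 (chr13:23563048-23563107, mm8), read -2.06 and -2.36 at 10 ng/ml, a mean of -2.21 ± 0.21 that ranked 10 from the lowest of all tested probes. It read -2.13 on both arrays at 300 ng/ml and -2.89 and -2.97 in Pax5sz2 (-2.93 ± 0.055, rank 12). In the 1000 ng/ml pair it read 1.45 and 1.19 as labelled, a mean of 1.32 ± 0.19, or -1.32 with the sign turned. The 2 lower doses and Pax5sz2 thus lay on 1 side of clone 4 and the labelled 1000 ng/ml pair on the other. Its level in clone 4 was 11.74, 11.78 and 11.95 in the first 3, and 10.76 in the 1000 ng/ml pair as labelled or 12.08 with the sign turned. The probes of this gene disagreed. A_51_P501260 was dim, with means of 0.36 ± 0.14, -0.38 ± 0.15, 0.29 ± 0.0074 and -0.04 ± 0.16 at 10, 300 and 1000 ng/ml and in Pax5sz2, and the remaining probe was at background.

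The 3 other somatic H1 genes were lower in Pax5sz2 too, and Hist1h1b and Hist1h1a were lower by less at 10 and 300 ng/ml. Hist1h1b (H1.5) read -2.59 and -2.49 in Pax5sz2, against means of -0.74 ± 0.037 at 10 ng/ml and -0.91 ± 0.21 at 300 ng/ml. Hist1h1a (H1.1) read -2.13 and -2.06 in Pax5sz2, against -0.81 ± 0.15 at 10 ng/ml and -0.75 ± 0.10 at 300 ng/ml. Hist1h1c (H1.2), whose message is known to occur with a poly(A) tail too, read -1.03 and -0.95 in Pax5sz2, so 1 of its arrays lay inside 2-fold. At 10 and 300 ng/ml Hist1h1c was near clone 4, at -0.09 ± 0.10 and 0.15 ± 0.12. As labelled, the 1000 ng/ml means of the 3 genes were 0.35 ± 0.59 (Hist1h1b), 0.87 ± 0.14 (Hist1h1a) and 0.59 ± 0.24 (Hist1h1c), or -0.35, -0.87 and -0.59 with the sign turned.

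The linker genes outside this group mostly read near 0. Hist1h1t (testis H1t), H1fnt (spermatid H1) and H1foo (oocyte H1) had dim probes, with all means between -0.29 and 0.15. H1f0 (H1.0, which accumulates in resting and differentiated cells) had 3 probes whose means lay between -0.43 and 0.15 over the 4 comparisons. The exception was H1fx (H1.10), where the probe A_52_P748854, which has no genome position in the files, read 2.62 and 1.32 at 10 ng/ml and 1.89 and 2.10 at 300 ng/ml. Those means, 1.97 ± 0.92 and 2.00 ± 0.15, ranked 27 and 39 from the highest of all tested probes. It was -0.18 ± 0.12 at 1000 ng/ml as labelled (0.18 with the sign turned) and 0.59 ± 0.24 in Pax5sz2. The H1fx probe with a position (chr6:87946684-87946743, mm8) was dim and read between -0.18 and 0.10 on average in every comparison. The 2 probes thus disagreed, and which transcript the brighter probe reads was not tested.

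**Figure D2:**
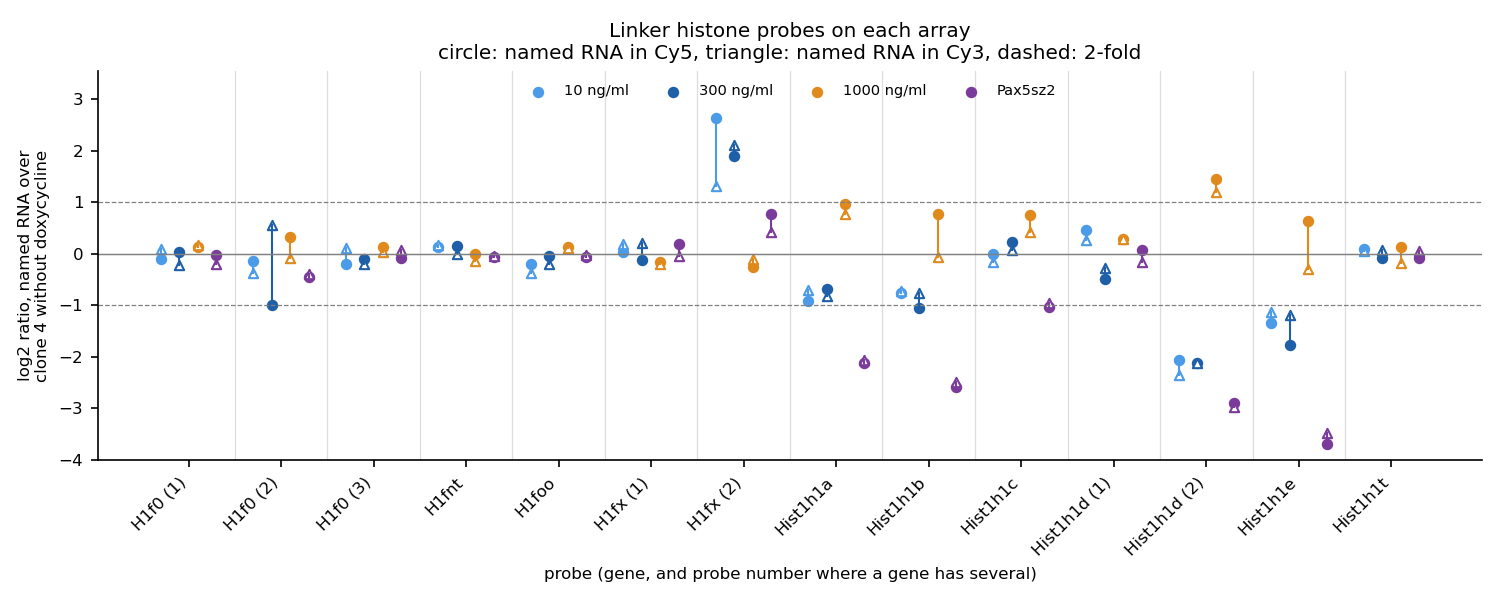
Log2 ratio of each tested linker histone probe on each array, by comparison (circle, named RNA in Cy5; triangle, named RNA in Cy3; dashed lines at 2-fold). Hist1h1a, Hist1h1b, Hist1h1e and the second Hist1h1d probe lie below -2 on both Pax5sz2 arrays, while the brighter H1fx probe lies above 1 at 10 and 300 ng/ml.

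The promoters of these H1 genes are shown because the 3 genes had the lowest H1 ratios in Pax5sz2. A promoter window of 300 bases (250 before to 50 after the start, RefSeq, GRCm38.p6) was held for 40 of the 47 genes. It was searched on both strands for the letters AAACACA (the H1 box), CCAAT (the CCAAT box), TATAAA (the TATA box) and ATTTGCAT (the octamer), none of which contains another. The 150 bases before each start follow, in the direction of transcription, with matches to these 4 motifs in capitals. They lie at chr13:21780626-21780775 (minus strand), chr13:23554882-23555031 (plus strand) and chr13:23622559-23622708 (minus strand).
Hist1h1b: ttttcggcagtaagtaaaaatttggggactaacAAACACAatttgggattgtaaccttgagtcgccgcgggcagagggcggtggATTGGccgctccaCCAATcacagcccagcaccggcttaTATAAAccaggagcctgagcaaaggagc
Hist1h1d: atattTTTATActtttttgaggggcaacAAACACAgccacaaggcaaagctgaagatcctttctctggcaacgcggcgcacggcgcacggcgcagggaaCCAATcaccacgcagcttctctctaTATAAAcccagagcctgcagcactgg
Hist1h1e: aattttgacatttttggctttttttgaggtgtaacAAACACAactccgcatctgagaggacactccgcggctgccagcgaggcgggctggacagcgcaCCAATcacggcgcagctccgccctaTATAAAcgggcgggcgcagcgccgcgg
Each holds an H1 box, a CCAAT and, close to the start, a TATA box. In the whole window AAACACA was found in 5 of 6 Hist1h1 promoters, Hist1h1t included (83.3%, Hist1h1a without a match), against 7.14% of 27025 promoter windows of the same length. CCAAT was in 6 of 6 (against 37.9%) and TATAAA in 4 of 6 (against 14.2%). Other cluster classes held these 2 motifs as well. CCAAT was in 11 of 11 cluster H2A, 5 of 5 H2B, 2 of 2 H3 and 2 of 5 H4 windows. TATAAA was in 7 of 11, 3 of 5, 1 of 2 and 3 of 5 in the same order. Hist1h1c and the testis gene Hist1h1t, whose ratios in Pax5sz2 were smaller, also held the H1 box. Of the variant linker promoters, H1f0, H1fx and H1fnt held none of the 4 motifs, and H1foo held a CCAAT. These matches are a description of letters and say nothing about binding in these cells.

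Histone H4 was the core class with the lowest ratios in Pax5sz2. The median of 7 cluster H4 probes was -2.15, and 6 of the 7, of 5 genes, were at least 2-fold lower. Hist1h4d was lowest, where the probe A_51_P482070 (chr13:23589103-23589162, mm8) read -2.57 and -2.88 (-2.73 ± 0.22, or 6.62-fold lower, rank 25 from the lowest) and its other probe -2.12 and -2.31. Hist1h4f read -2.04 and -2.26, and Hist1h4a -1.98 and -2.32. The genes on other chromosomes read alike, Hist2h4 on chromosome 3 at -1.59 and -2.20 and Hist4h4 on chromosome 6 at -1.79 and -2.19. All copies encode the same protein from near-identical coding sequences, so these probes may read each other's transcripts and are not 6 independent measurements. With median-centred arrays the class median was -1.63 and only the 2 Hist1h4d probes passed the size on both arrays. Hist1h4h was the exception, at -0.14 and -0.03, with a level in clone 4 of 11.92. Its probe is placed at chr13:22048045-22048051 in mm8, near the Hist1h2bk probes. The other Hist1h4 probes of that chromosome lie between 23558845 and 23768556. Which transcript the Hist1h4h probe reads was not tested.

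At the lower doses the same 6 H4 probes were lower than in clone 4 by less than 2-fold on at least 1 array. The class median was -0.82 at 10 ng/ml and -0.86 at 300 ng/ml, and no H4 probe passed the size at any dose. At 10 ng/ml the 6 probes lay between -0.84 and -0.74, while Hist1h4h was at 0.22 ± 0.12. They lay between -1.05 and -0.79 at 300 ng/ml. Hist2h4 (-2.04 and -0.06) and Hist1h4h (-1.41 and 0.66) had arrays far apart there. The 2 arrays of the 1000 ng/ml pair had opposite signs for all 7 probes, with a median of 1.28 with the named RNA in Cy5 and -0.59 in Cy3, so no direction can be read for H4 at that dose.

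Histone H2B probes were lower at both lower doses and in Pax5sz2, by like amounts. The median of 9 cluster H2B probes was -1.004 in Pax5sz2, -0.90 at 10 ng/ml and -1.08 at 300 ng/ml. The 1000 ng/ml pair had 0.96 as labelled, with 9 of 9 above 0 on both arrays, or -0.96 with the sign turned. At 300 ng/ml 4 of 9 were at least 2-fold lower, while 0 passed in Pax5sz2 or at 10 ng/ml. The 4 medians had the same direction with arrays centred on their median (-0.61, -0.97, 0.87 and -0.59 in the order 10, 300 and 1000 ng/ml and Pax5sz2), as means of 2 arrays, although none of the 4 probes at 300 ng/ml then passed on both arrays.

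The H2B probes past the size at 300 ng/ml were both probes of Hist1h2bk and those of Hist1h2ba and Hist3h2bb. Hist1h2bk read -1.19 and -1.30 on the probe A_51_P182358 (chr13:22043458-22043517, mm8) and -1.01 and -1.29 on the other. With the scanner's processed signals A_51_P182358 was at -0.55 and no longer passed, while A_52_P388224, the other, was at -1.18. Hist3h2bb, on chromosome 11 and now annotated as a pseudogene (H2bu1-ps), read -1.03 and -1.29. Hist1h2ba, the testis-specific H2B, read -1.02 and -1.14. Hist1h2bm was just short, at -0.92 and -1.33. In Pax5sz2 these 5 probes lay between -1.08 and -1.004 on average and at 10 ng/ml between -0.99 and -0.90. H2B genes have near-identical coding sequences, so these probes may share transcripts, and cross-hybridisation was not tested.

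Hist1h2bc behaved differently from these 5. Its brighter probe, A_51_P462311 (chr13:23699815-23699874, mm8), read 1.29 and 1.36 at 1000 ng/ml as labelled, a mean of 1.33 ± 0.051 (-1.33 with the sign turned), and was past the size only in that pair among the 4. It read -0.24 and -0.19 at 10 ng/ml, -0.69 and -0.85 at 300 ng/ml and -0.71 and -0.81 in Pax5sz2. Its level in clone 4 without doxycycline was 12.48, 12.66 and 12.11 in those comparisons. In the 1000 ng/ml pair it was 10.69 as labelled, or 12.01 with the sign turned. The other Hist1h2bc probe is placed far from A_51_P462311, at chr13:21844810-21844869 (mm8), and whether both read the same gene was not tested. This other probe was dimmer, with means of -0.45 ± 0.15, -0.97 ± 0.16, 0.38 ± 0.068 and -0.63 ± 0.21 at the rising doses and in Pax5sz2. Hist2h2be, whose message also occurs with a poly(A) tail, had means of -0.50 ± 0.11, -0.59 ± 0.26, 0.19 ± 0.093 and -0.50 ± 0.062 in the same order. Hist3h2ba was dim and was the 1 H2B probe above clone 4 in Pax5sz2, at 0.79 and 1.07.

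**Figure D3:**
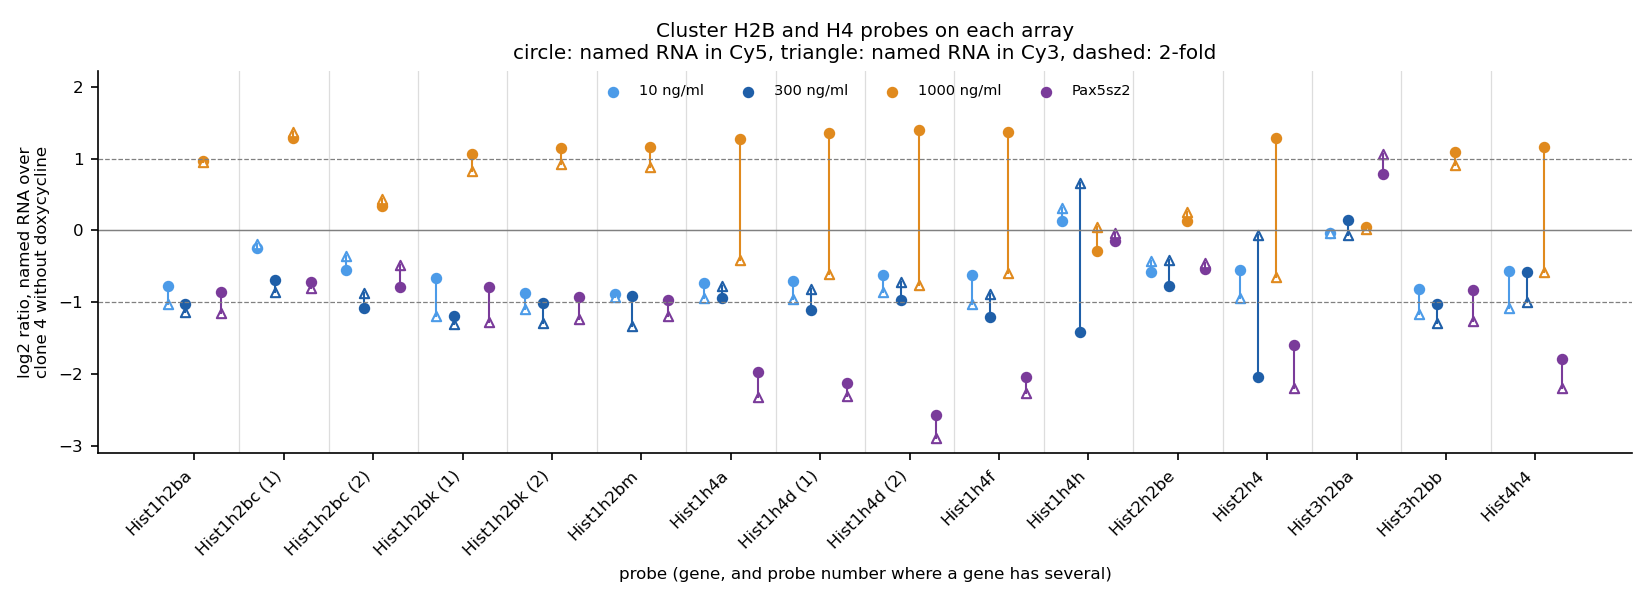
Log2 ratio of each cluster H2B and H4 probe on each array, by comparison (circle, named RNA in Cy5; triangle, named RNA in Cy3; dashed lines at 2-fold). The Pax5sz2 values of 6 H4 probes lie below -1.5 and those of 5 of the 9 H2B probes near -1, with Hist3h2ba above 0, and at 1000 ng/ml the H4 arrays lie on opposite sides of 0.

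The promoters of 1 gene of each class are shown for comparison with the H1 genes, in the same form and build. Hist1h4d (chr13:23581418-23581567, plus strand) had the lowest H4 ratio and Hist1h2bk (chr13:22035671-22035820, plus strand) the lowest H2B ratio at 300 ng/ml as normalized here.
Hist1h4d: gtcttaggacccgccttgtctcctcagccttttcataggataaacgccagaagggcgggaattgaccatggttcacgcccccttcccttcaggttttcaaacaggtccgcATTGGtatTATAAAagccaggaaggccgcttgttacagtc
Hist1h2bk: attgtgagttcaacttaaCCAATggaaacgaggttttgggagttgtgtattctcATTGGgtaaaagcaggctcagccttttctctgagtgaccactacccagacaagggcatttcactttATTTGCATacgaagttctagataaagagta
The H4 sequence holds a CCAAT on the opposite strand and a TATA box, and the H2B sequence 1 CCAAT on each strand and the octamer. The octamer was found in 3 of 5 cluster H2B windows and 6 of 11 cluster H2A windows (54.5%), against 1.75% of all windows, and in 0 of 5 cluster H4 and 0 of 6 cluster H1 windows. AAACACA was in 0 of 5 cluster H4 and 0 of 2 cluster H3 windows. It was in 2 of 5 cluster H2B (40%) and 2 of 11 cluster H2A windows (18.2%), against 7.14% of all windows. Hist1h4h, whose probe was near 0 in Pax5sz2, held none of the 4 motifs, and neither did Hist4h4, which was lower there. Since the Hist1h4h probe is placed apart from the other Hist1h4 probes, its ratio may not belong to this promoter.

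Cluster H2A and H3 probes differed little from clone 4. The 14 cluster H2A probes had medians of -0.18, 0.08 and -0.26 at 10, 300 and 1000 ng/ml and -0.30 in Pax5sz2, and with arrays centred on their median these became 0.04, 0.13, -0.46 and 0.11, so that no direction is given at 10 ng/ml or in Pax5sz2. A single probe passed the size in any comparison, Hist1h2ab at -1.14 and -1.36 in Pax5sz2 (chr13:23758988-23759047, mm8), and with median-centred arrays its mean there was -0.91. It was at -0.34 ± 0.18 at 10 ng/ml, -0.40 ± 0.22 at 300 ng/ml and 0.19 ± 0.78 at 1000 ng/ml as labelled. The probes of Hist1h2af disagreed. Its brightest probe (level in clone 4 of 17.67 at 10 ng/ml) read -0.19 and -0.78 in Pax5sz2, a less bright one 0.30 on both arrays, and its dim one -0.48 and -0.36. The 3 cluster H3 probes had medians of -0.17, -0.16, 0.17 and -0.55 in the same order, with none past the size, and the first 3 changed sign with median-centred arrays (0.22, 0.15 and -0.08) while that of Pax5sz2 became -0.08. Hist1h3d (-0.64 ± 0.066), Hist2h3c1 (-0.55 ± 0.079) and Hist1h3a (-0.38 ± 0.059) were lower than clone 4 on both arrays in Pax5sz2.

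Among the variant core histones, macroH2A1 (H2afy), an H2A with a large extra domain that is linked to silent chromatin, was lower at 300 ng/ml and in Pax5sz2 on all 3 of its probes. At 300 ng/ml A_52_P141583 read -3.06 and -1.80, A_52_P179238 read -1.38 and -1.83, and A_52_P402989 read -1.61 and -1.66. The mean of the first, -2.43 ± 0.89 or 5.40-fold lower, ranked 30 from the lowest of all tested probes. In Pax5sz2 the 3 probes read -1.21 and -1.19, -0.93 and -1.33, and -1.55 and -1.39, so that 2 of 3 passed the size. At 10 ng/ml their means were -0.82 ± 0.37, -0.71 ± 0.38 and -0.74 ± 0.047. As labelled they were 1.099 ± 0.25, 0.97 ± 0.23 and 1.12 ± 0.08 at 1000 ng/ml, or -1.099, -0.97 and -1.12 with the sign turned. The 3 probes lie at separate places in the gene (chr13:56092789-56092848, chr13:56097874-56097933 and chr13:56114014-56114073, mm8). On each of the 8 arrays the 3 had the same sign as each other. With median-centred arrays the means at 300 ng/ml were -2.19, -1.63 and -1.39, and only A_52_P141583 then passed the size on both arrays. In Pax5sz2 they were -0.65 for A_52_P141583 and -0.97 for A_52_P402989, so that both calls there were lost.

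The other H2A variants did not share this pattern. H2afy3 read 1.12 and 1.02 at 300 ng/ml and 0.86 and 0.91 at 10 ng/ml, was dim (level in clone 4 of 7.94), and was at -0.05 ± 0.0023 at 1000 ng/ml as labelled and 0.51 ± 0.17 in Pax5sz2. H2afx, the variant that is phosphorylated at DNA breaks, read 0.31 and 1.05 at 10 ng/ml and -1.68 and 0.87 at 300 ng/ml, so the arrays at 300 ng/ml had opposite signs. It was at -0.62 ± 0.32 at 1000 ng/ml as labelled and 0.36 ± 0.51 in Pax5sz2. The H2A.Z genes lay between -0.40 and 0.36 in every comparison, with H2afz at 0.32 ± 0.21, 0.36 ± 0.44, -0.40 ± 0.0077 and 0.22 ± 0.13 and H2afv at 0.01 ± 0.23, -0.36 ± 0.027, 0.13 ± 0.031 and 0.06 ± 0.29 at the rising doses and in Pax5sz2. H2afj had a bright probe at -0.40 ± 0.55, -0.90 ± 0.33, -0.24 ± 0.23 and -0.44 ± 0.40 and a dim one between -0.33 and 0.08. The brighter of these was less low with median-centred arrays (0.04, -0.53, -0.53 and 0.18).

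H3.3, the H3 variant placed into chromatin outside S phase, stayed near clone 4. The 3 probes of H3f3a had means between 0.22 and 0.31 at 10 ng/ml, between -0.64 and 0.10 at 300 ng/ml, between 0.48 and 0.59 at 1000 ng/ml as labelled and between -0.08 and -0.03 in Pax5sz2. The 3 probes of H3f3b had means between -0.18 and 0.07, between -0.22 and -0.01, between -0.29 and 0.08 and between -0.31 and -0.13 in the same order. None passed the size, and with median-centred arrays the class median turned from -0.11 to 0.47 in Pax5sz2 and from -0.07 to 0.30 at 300 ng/ml. At 10 ng/ml it went from 0.14 to 0.57.

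**Figure D4:**
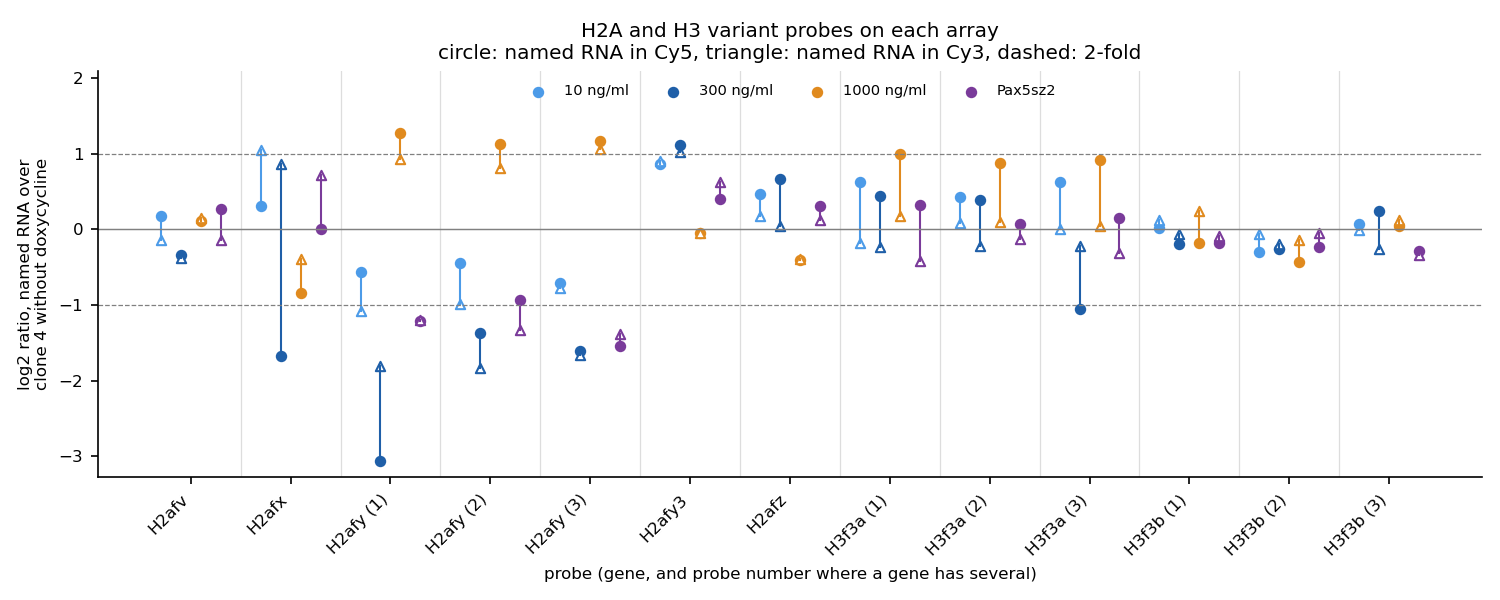
Log2 ratio of probes for the H2A and H3 variants on each array, by comparison (circle, named RNA in Cy5; triangle, named RNA in Cy3; dashed lines at 2-fold). All 3 H2afy probes lie below -1 at 300 ng/ml and between 0.81 and 1.27 at 1000 ng/ml as labelled, and the H3f3a and H3f3b probes lie close to 0 in Pax5sz2.

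Set against each other as whole classes, linker and core histones differed by less than 0.4, and both hold cluster and variant genes. The medians of 14 linker and 48 core probes were -0.07 and -0.28 at 10 ng/ml, -0.14 and -0.44 at 300 ng/ml, 0.14 and 0.15 at 1000 ng/ml as labelled, and -0.09 and -0.47 in Pax5sz2. Linker minus core was thus 0.21, 0.30, -0.01 and 0.38. Over cluster genes alone (7 linker and 33 core probes) the difference had the other sign at both lower doses and in Pax5sz2, at -0.32, -0.24, 0.16 and -1.56. In Pax5sz2 that is a median of -2.09 for linker against -0.54 for core. The core value pools classes that lay apart there. Their medians were -2.15 for 7 H4, -1.004 for 9 H2B, -0.55 for 3 H3 and -0.30 for 14 H2A probes, so H4 was as low as the linker genes. Over variant genes alone (7 linker and 15 core probes) the Pax5sz2 difference was 0.03. The class medians also depended on the scaling. With median-centred arrays those of the 48 core probes were -0.05, -0.25 and 0.02 at the rising doses and 0.03 in Pax5sz2. Those of the 14 linker probes were then -0.05, -0.11, 0.11 and -0.16, so no direction is given for core histones as a whole in Pax5sz2. No test was made of these differences, since probes are not replicates of a condition.

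Levels were set side by side for the probes furthest from 0. On the level scale Hist1h1e was at 13.13 in clone 4 and 9.56 in Pax5sz2, and Hist1h1d (A_52_P10683) at 11.95 and 9.02. For H2afy (A_52_P141583) the control level was 15.63, 15.65 and 15.62 at 10 ng/ml, 300 ng/ml and in the Pax5sz2 comparison. Which RNA of the 1000 ng/ml pair is the control depends on its unsettled direction. As labelled, the control of that pair was at 14.57 for this H2afy probe, 10.76 for Hist1h1d and 10.69 for Hist1h2bc (A_51_P462311), lower than in the other 3 comparisons. With the sign turned it was at 15.67, 12.08 and 12.01 in the same order.

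**Figure D5:**
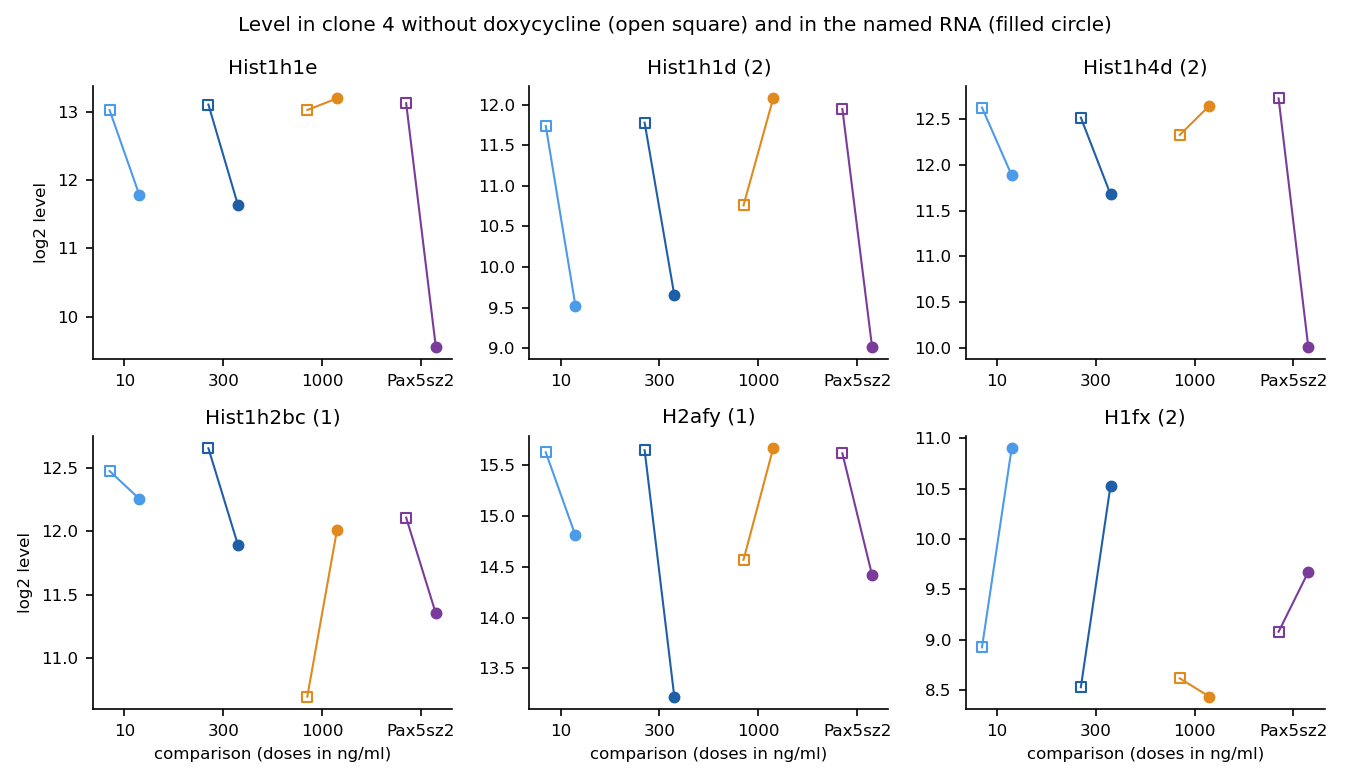
Normalized log2 level of 6 histone probes in clone 4 without doxycycline (open squares) and in the named RNA (filled circles), by comparison. Each panel has its own vertical scale. For H2afy (1), the probe A_52_P141583, the labelled control sits at 14.57 in the 1000 ng/ml pair, the other RNA of that pair at 15.67, and the control between 15.62 and 15.65 in the other 3.

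A mean effect of doxycycline over the 3 doses was fitted with limma, each dose counting as 1 value, with Benjamini-Hochberg adjustment over 29464 probes. As labelled, 0 of 62 histone probes and 0% of all tested probes had an adjusted p under 0.05. At an unadjusted p under 0.05 there were 5 histone probes, all lower (8.06%, against 5.9%). Hist1h2af (A_52_P165633) ranked first, at -0.49 (SE 0.068, limma adjusted p = 0.689), and Hist2h3c1 last (limma adjusted p = 0.991). With a variance trend and robust moderation in limma, 0 passed either threshold. With the sign of the 1000 ng/ml pair turned, 0 passed again, while 27 of 62 histone probes had an unadjusted p under 0.05 (43.5%, against 25%), 24 lower and 3 higher. Hist1h2bk (A_52_P388224) had the smallest of these, at -1.06 (SE 0.065, limma adjusted p = 0.121).

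Without the 1000 ng/ml pair, 21 of 62 histone probes passed the adjusted threshold, 19 lower and 2 higher, against 16.2% of all tested probes. This fit has 2 values, and its spread is borrowed from all probes. Hist1h1d (A_52_P10683) was at -2.17 (SE 0.064, limma adjusted p = 0.035), H1fx (A_52_P748854) at 1.98 (SE 0.06, adjusted p = 0.035) and Hist1h1e at -1.36 (SE 0.09, adjusted p = 0.035). The other probe that rose was H2afy3 (0.98, SE 0.08, adjusted p = 0.035). Those that fell included 6 H4 probes, Hist1h1a (-0.78), Hist1h1b (-0.83) and the H2B probes of Hist1h2ba (-0.99), Hist1h2bk (-1.07 and -1.09), Hist1h2bm (-1.02) and Hist3h2bb (-1.07). H2afy (A_52_P402989), at -1.19 with an SE of 0.26, did not pass (limma adjusted p = 0.0741).

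Genes that supply or handle histones came next. Of 24 tested probes for histone transcription and 3' end processing factors, 0 passed the size in any comparison, and their medians were 0.11, -0.02 and -0.15 at the rising doses and -0.01 in Pax5sz2. Slbp, the stem-loop binding protein, was at -0.70 ± 1.25 at 300 ng/ml, where its arrays had opposite signs, and -0.70 ± 0.099 at 1000 ng/ml as labelled. Lsm11, a part of the U7 particle that cuts histone messages, had means of 0.52 ± 0.06 at 10 ng/ml and 0.92 ± 0.28 at 300 ng/ml. In Pax5sz2 the furthest from 0 were Cpsf2, a cleavage factor subunit, with probes at 0.84 ± 0.39 and -0.78 ± 0.32, and E2f1 at -0.60 ± 0.13.

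Of 34 tested probes for histone chaperones, 1 passed the size, that of Cabin1, a subunit of the HIRA complex that deposits H3.3. Cabin1 (A_52_P423384) read -1.12 and -1.06 at 10 ng/ml, -1.12 and -1.17 at 300 ng/ml and -2.48 and -2.20 in Pax5sz2, and was at 0.51 ± 0.10 at 1000 ng/ml as labelled. The subunits Hira and Ubn1 of that complex were among the furthest from 0 in Pax5sz2, Hira at -1.01 ± 0.094 and Ubn1 at -0.81 ± 0.14. Supt16h, a subunit of FACT, had means of 0.94 ± 0.013 at 10 ng/ml and 1.01 ± 0.33 at 300 ng/ml. Asf1b was the furthest from 0 in the 1000 ng/ml pair, at -0.81 ± 0.13 as labelled.

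DNA replication genes had medians of the opposite sign to cluster H1 and H2B in each of the 4 comparisons, and to cluster H4 in all but the 1000 ng/ml pair, where H4 has no readable direction. Their 26 probes had medians of 0.16, 0.22, -0.38 and 0.20 at the rising doses and in Pax5sz2, and 1 passed the size, Cdc6, the origin licensing factor, at 1.34 and 1.31 in Pax5sz2. Cdc6 had means of 0.98 ± 0.035 at 10 ng/ml and 0.97 ± 0.089 at 300 ng/ml. Furthest from 0 in the 1000 ng/ml pair as labelled were Rrm2, a subunit of ribonucleotide reductase, at -1.08 ± 0.43 and Ccne2 at -1.01 ± 0.061, opposite in sign to the H2B probes of that pair.

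Markers of other cells differed between the RNAs of a comparison too. Summed intensity of 16 stromal feeder cell genes was 44360 to 51028 at 10 ng/ml, against 23321 to 25742 in its control, and 49441 to 58464 at 300 ng/ml, against 18338 to 24616. It was 43174 to 45047 in Pax5sz2, against 25444 to 26075, and 23634 to 27478 at 1000 ng/ml, against 25390 to 28182. Of the 27 stromal probes 3, 8, 0 and 4 were at least 2-fold higher at the rising doses and in Pax5sz2 and 0 lower, while Lum and Dcn, matrix proteins of fibroblasts, were not detected in the named RNA at any dose. Of 13 myeloid probes, 1 was higher (Cebpb, 1.45 ± 0.036) and 1 lower (Tyrobp, -1.35 ± 0.15) at 10 ng/ml, and 0 were higher and 4 lower at 300 ng/ml. The 4 probes past the size in the 1000 ng/ml pair were all higher as labelled and are all lower once its sign is turned, and Pax5sz2 had 0 higher and 3 lower. Summed intensity of the 8 myeloid genes on the arrays was 34968 to 43683 at 10 ng/ml, against 37693 to 39180 in its control. It was 8081 to 11145 at 300 ng/ml, against 37250 to 41687, and 16807 to 18969 in Pax5sz2, against 42659 to 43893. The 1000 ng/ml RNA as labelled had 36223 to 44286, against 4206 to 4868, and these 2 ranges change places with the sign turned. The part of these markers in the histone ratios was not tested.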

How the data were processed

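Two-colour Agilent mouse arrays (43790 spots, 2256 of them controls) were read for 8 hybridisations. The deposited scanner files hold each channel's mean spot intensity and median local background intensity, per the file headers, made with Feature Extraction 10.5.1.1. A log10 ratio (Cy5 over Cy3), which the scanner software computed from processed signals, is deposited in the same files. The values of the deposited series matrix differ from that log10 ratio by at most 5e-06 once all arrays are set to run from the control to the named RNA. For detection above background, the software's multiplier was 2.6 for the 1000 ng/ml arrays and 13 elsewhere, per the file headers, so detection is not at 1 threshold. Between 40.4% and 45.1% of spots passed on that pair and between 59.5% and 75.5% on the others.

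Background was corrected with normexp (offset 50, which draws the ratios of dim probes towards 0), and log2 ratios were normalized by loess within each array (limma 3.58.1, R 4.3.3 with version 1.17.8 of its data.table package), with control spots at weight 0. Outlier-flagged spots, 37 to 295 on an array, were dropped, and spots of a probe were averaged. Levels came from between-array scaling of average intensity (Aquantile). Groups came from the labels. The 2 arrays of a pair were averaged. Correlation between them over all tested probes was 0.834, 0.639, 0.81 and 0.924 at 10, 300 and 1000 ng/ml and in Pax5sz2, and over histone probes 0.829, 0.642, 0.424 and 0.954. The mean doxycycline effect used lmFit and eBayes, two-sided, which leaves out the spread of the control RNA. The steps were tested on simulated data. Promoters came from RefSeq (GRCm38.p6), probe positions (mm8) from the file headers, and no position was converted between builds. Exons and untranslated regions of the probes were not assigned here. Figures used Python 3.11.15 and matplotlib 3.10.9.

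The histone probes and the gene lists were chosen with earlier results of these data known. Named were the histone probes past the size in any comparison (21 probes of 17 genes), other tested probes of those genes, every tested probe of the main variants, the probes of largest and smallest limma p, and from each supply list the probes past the size or, failing that, examples from the 4 furthest from 0. Alternatives were median centring, the scanner's processed signals, the series matrix, no or a stricter detection filter, a 1.5-fold size, leaving out an array or a dose, the sign of the 1000 ng/ml pair, and cluster or variant genes alone.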

Additional observations from a re-analysis of the deposited data

Results flagged for a closer look

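Hist1h1d (A_52_P10683) lay on opposite sides of clone 4 at 1000 ng/ml and at the lower doses, at 1.32 as labelled against -2.21 at 10 ng/ml and -2.13 at 300 ng/ml, each pair with the same sign on both arrays. H2afy (A_52_P402989) did the same at 1000 against 300 ng/ml, at 1.12 against -1.64. These differences between doses were not tested, and with the sign of the 1000 ng/ml pair turned they are no longer opposite. H2afy (A_52_P141583) was marked for its level in clone 4 without doxycycline, which was 14.57 in the 1000 ng/ml pair as labelled against 15.62 to 15.65 in the other 3 comparisons, and 15.67 with the sign of that pair turned. Its gap to the nearest was 0.969 of the whole range. Control levels of 21 probes were looked at in this way, of which chance marks about 1 in 20.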

How the results depend on the processing

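The counts of probes past the size moved most. At least 1.5-fold in place of 2-fold gave 16, 22, 11 and 23 probes at 10, 300 and 1000 ng/ml and in Pax5sz2. Median centring left 3, 0 and 6 at 300 and 1000 ng/ml and in Pax5sz2, and the processed signals and the series matrix gave 6 at 1000 ng/ml. As labelled, 5 of those 6 were higher and 1 lower. With the processed signals 873 of all 29464 tested probes were higher in that pair and 326 lower. Leaving out 1 array of the pair gave 3 to 11, 12 to 21, 3 to 15 and 14 to 20 in the same order. Fewer arrays have to agree there. Shares of all tested probes are not given at 1.5-fold or with 1 array left out. Those counts therefore do not set histone probes against the rest.

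Linker minus core medians depended on the genes taken. At 10 ng/ml the difference was 0.0001328 with median centring, 0.0611 with the stricter filter, -0.32 over clusters, -0.03995 over variants and 0.06623 to 0.25 without 1 array. At 300 ng/ml it was 0.02285 with the processed signals and the series matrix, -0.24 over clusters and 0.07784 to 0.34 without 1 array. At 1000 ng/ml it was 0.09197 with median centring, 0.03955 with no filter, 0.17 with the stricter filter, 0.16 over clusters and -0.005367 to 0.03439 without 1 array. In Pax5sz2 it was -0.19 with median centring, 0.16 with the processed signals and the series matrix, 0.31 with no filter, 0.0579 with the stricter filter, -1.56 over clusters, 0.03277 over variants and 0.22 to 0.29 without 1 array.

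The limma test called 21 histone probes without the 1000 ng/ml pair and 0 under every other setting tried. With the sign of that pair turned, Hist1h2bc (A_51_P462311) was at -1.33, Hist1h1d (A_52_P10683) at -1.32 and H2afy (A_52_P402989) at -1.12. The cause of these shifts was not tested. No paired analysis was possible because the labels give no replicate numbers that groups share, and the 2 arrays of a comparison are a dye swap of the same RNAs.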

Other observations

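A few histone-like probes lie outside the symbol rule. There were 12 of them, 8 tested, and none reached 2-fold in Pax5sz2. The probe named for the transcript AK050582 read -0.77 and -0.75 there, against means of 0.39 at 10 ng/ml and 0.44 at 300 ng/ml.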
